A study of Mus musculus with 8 samples.

Results

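Glucose uptake and glycolysis in the heart depend on families of related genes, and 10 of them were examined for H3K27Ac, the acetylation of histone H3 that marks active promoters and enhancers: the transporters *Slc2a1* and *Slc2a4*, the hexokinases *Hk1* and *Hk2*, *Pfkm*, *Pkm*, the lactate dehydrogenases *Ldha* and *Ldhb*, and the pyruvate dehydrogenase kinases *Pdk2* and *Pdk4*. Their peaks are those whose centre lies nearest to a curated RefSeq transcription start of a member. This gave 29 of the 45987 H3K27Ac peaks, near 9 of the 10 genes. No peak was nearest to a start of *Hk1*, since the antisense gene *Hk1os* starts just inside the downstream *Hk1* start and so nearer to most peak centres of the locus. Peaks within *Hk1* are therefore described by their position.

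H3K27Ac ChIP-Seq was done on ventricles of P7 mice, at postnatal day 7. Controls were Arid1a f/f, with both *Arid1a* alleles floxed and no Cre, and mutants were aMHC-Cre;Arid1a f/f (*Arid1a cKO*). There were 2 H3K27Ac libraries per genotype, and each of the 4 hearts also gave an input library without antibody. *Arid1a* encodes a DNA-binding component of SWI/SNF, which moves nucleosomes on chromatin. The aMHC (*Myh6*) promoter drives Cre in cardiomyocytes, so the other cells of the ventricle keep *Arid1a*, and the peaks do not measure the deletion itself.

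In the fetal and newborn heart, glucose enters largely through GLUT1 (*Slc2a1*) and is used by glycolysis, while after birth the heart turns to fatty acid oxidation and to the insulin-responsive transporter GLUT4 (*Slc2a4*). Hexokinase, phosphofructokinase and pyruvate kinase carry the committed steps of glycolysis, and lactate dehydrogenase interconverts pyruvate and lactate. Pyruvate dehydrogenase kinases inhibit the entry of pyruvate into the mitochondrial citric acid cycle. Several of these steps have a fetal-type and an adult-type isoform, such as HK1 and HK2 at the hexokinase step.

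Sequences are shown for the peaks and promoters on which the description turns, from the GRCm38 (mm10) reference. The centres of 4 peaks that were lower in *Arid1a cKO* and of 1 that was higher come first. The 250 bases upstream of the start of *Slc2a1*, *Hk2*, *Ldha* and *Pdk4* follow. The promoter peaks of these genes all differed by less than 2-fold, from 1.55-fold lower at *Ldha* to 1.31-fold higher at *Hk2*. Peak centres are read on the plus strand and promoters on the strand of the gene, both 5′ to 3′. Capitals mark matches on either strand to 5 motifs: the TEAD core CATTCC, the E-box CACGTG, the hypoxia response core ACGTG, the estrogen-related receptor (ERR) core AAGGTCA, and the MEF2 site. Each E-box holds the hypoxia core on both strands, so the counts of these motifs overlap.
Slc2a1, intron 1, 3.03-fold lower, chr4:119115940-119116239: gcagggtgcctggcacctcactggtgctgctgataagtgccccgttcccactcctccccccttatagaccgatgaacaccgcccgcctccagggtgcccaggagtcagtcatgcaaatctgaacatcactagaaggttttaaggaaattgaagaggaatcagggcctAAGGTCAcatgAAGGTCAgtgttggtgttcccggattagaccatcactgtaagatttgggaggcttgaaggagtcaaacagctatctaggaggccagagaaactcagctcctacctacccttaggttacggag
Slc2a1, intron 1, 3.34-fold lower, chr4:119118555-119118854: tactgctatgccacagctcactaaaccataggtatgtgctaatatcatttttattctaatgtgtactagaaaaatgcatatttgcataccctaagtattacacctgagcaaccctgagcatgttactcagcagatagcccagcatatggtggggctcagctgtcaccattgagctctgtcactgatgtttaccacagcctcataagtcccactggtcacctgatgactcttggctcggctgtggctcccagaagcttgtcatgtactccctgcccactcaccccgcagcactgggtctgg
Pkm, intron 3, 4.56-fold lower, chr9:59666926-59667225: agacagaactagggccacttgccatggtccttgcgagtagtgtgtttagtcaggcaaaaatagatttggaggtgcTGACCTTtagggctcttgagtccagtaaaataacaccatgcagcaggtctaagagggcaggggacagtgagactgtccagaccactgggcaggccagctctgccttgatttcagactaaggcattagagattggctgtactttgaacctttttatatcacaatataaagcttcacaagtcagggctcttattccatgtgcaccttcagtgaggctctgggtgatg
Ldhb, upstream, 3.12-fold lower, chr6:142521755-142522054: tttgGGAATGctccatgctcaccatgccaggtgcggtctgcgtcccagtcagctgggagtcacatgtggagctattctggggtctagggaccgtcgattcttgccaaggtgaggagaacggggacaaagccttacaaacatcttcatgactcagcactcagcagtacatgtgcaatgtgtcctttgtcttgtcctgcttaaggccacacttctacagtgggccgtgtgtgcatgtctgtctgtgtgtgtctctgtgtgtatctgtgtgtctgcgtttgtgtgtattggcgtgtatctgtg
Hk2, intron 1, 3.14-fold higher, chr6:82768165-82768464: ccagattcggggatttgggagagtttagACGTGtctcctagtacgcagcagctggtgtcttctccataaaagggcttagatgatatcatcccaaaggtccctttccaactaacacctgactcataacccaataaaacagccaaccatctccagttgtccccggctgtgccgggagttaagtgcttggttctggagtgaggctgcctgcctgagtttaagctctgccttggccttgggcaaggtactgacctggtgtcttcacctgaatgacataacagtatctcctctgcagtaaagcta
Slc2a1 promoter, plus strand, chr4:119108495-119108744: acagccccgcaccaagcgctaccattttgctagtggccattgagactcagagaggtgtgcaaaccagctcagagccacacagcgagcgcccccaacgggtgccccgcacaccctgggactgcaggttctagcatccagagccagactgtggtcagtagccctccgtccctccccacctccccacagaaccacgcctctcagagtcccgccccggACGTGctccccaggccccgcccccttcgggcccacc
Hk2 promoter, minus strand, chr6:82774455-82774704: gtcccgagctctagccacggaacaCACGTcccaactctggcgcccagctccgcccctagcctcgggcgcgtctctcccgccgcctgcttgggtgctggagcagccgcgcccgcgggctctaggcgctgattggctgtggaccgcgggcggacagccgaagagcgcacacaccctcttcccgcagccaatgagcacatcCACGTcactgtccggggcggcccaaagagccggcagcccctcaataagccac
Ldha promoter, plus strand, chr7:46845554-46845803: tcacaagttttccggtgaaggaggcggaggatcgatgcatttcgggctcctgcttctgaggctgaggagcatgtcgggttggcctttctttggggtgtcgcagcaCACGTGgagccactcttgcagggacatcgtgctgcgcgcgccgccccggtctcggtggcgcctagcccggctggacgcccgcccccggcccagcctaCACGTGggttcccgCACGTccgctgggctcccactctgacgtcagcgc
Pdk4 promoter, minus strand, chr6:5496279-5496528: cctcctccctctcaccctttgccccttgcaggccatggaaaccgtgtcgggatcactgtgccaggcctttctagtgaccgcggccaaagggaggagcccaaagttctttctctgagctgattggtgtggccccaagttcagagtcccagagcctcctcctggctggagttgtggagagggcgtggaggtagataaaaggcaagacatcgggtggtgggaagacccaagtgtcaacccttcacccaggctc

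The *Slc2a1* peak at 7.34 kb from the start holds the ERR core as a close pair in direct repeat, while the printed centre of the other lower *Slc2a1* peak holds none of the 5 motifs. The *Pkm* intron centre has 1 ERR core and the *Ldhb* upstream centre has 1 TEAD core. The *Ldha* promoter holds 2 E-boxes and 5 hypoxia core matches, of which 4 lie within the E-boxes. The hypoxia core is matched 2 times upstream of *Hk2* and 1 time upstream of *Slc2a1*, while the 250 bases upstream of *Pdk4* match none of the motifs. A match is a description of the letters and not of a bound factor. Within 500 bp at the middle of each of the 29 peaks, the TEAD core was present in 8 peaks (27.6%) against 26.4% of all peaks, the ERR core in 4 (13.8%) against 11.3%, the E-box in 4 (13.8%) against 7.96%, the hypoxia core in 11 (37.9%) against 26.5%, and MEF2 in 0 against 2.58%. In the RefSeq promoter windows of 300 bp, 16 windows matched 9 of the 10 genes, all but *Slc2a4*. The hypoxia core was in 8 of the 16 (50%) against 19.6% of 32851 windows, the E-box in 3 (18.8%) against 7.15%, the TEAD core in 1 (6.25%) against 14.7%, and the ERR core and MEF2 in 0, against 4.72% and 0.557%. Promoter windows of the 9 genes overlap in part and differ in base composition from the average window, and no test was made of these shares.

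The deposited values are group means. The level of a peak is given here as normalized reads, which is 2 to the power of the authors' mean concentration of a group, and the difference is the log2 concentration in *Arid1a cKO* minus that in controls. No value of a single heart is at hand, so the spread between hearts, the overlap of the groups and the depth per library are unknown, and differences are given without a test. A peak was called lower or higher when the means differed at least 2-fold. By this rule, 10.6% of the 45980 peaks on assembled chromosomes were lower in *Arid1a cKO* and 4.57% were higher, with a median difference of 0.01. Means of 3 normalized reads or fewer were taken as a floor, against which a fold is a bound.

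Of the 29 peaks, 4 (13.8%) were lower in *Arid1a cKO*, against 10.6% of all peaks, and 2 (6.9%) were higher, against 4.57%. The counts lie near the background in both directions. The peaks called lower belong to *Slc2a1* (2 peaks), *Ldhb* and *Hk2*, and both higher peaks belong to *Hk2*. The difference was below 0 in 19 of 29 peaks (65.5%), against 48.3% of all peaks, and its median was -0.12. The 23 remaining peaks differed by less than 2-fold. At a limit of 1.5-fold, 6 peaks were lower and 2 were higher, where 17.3% and 12% of all peaks were.

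**Figure D1:**
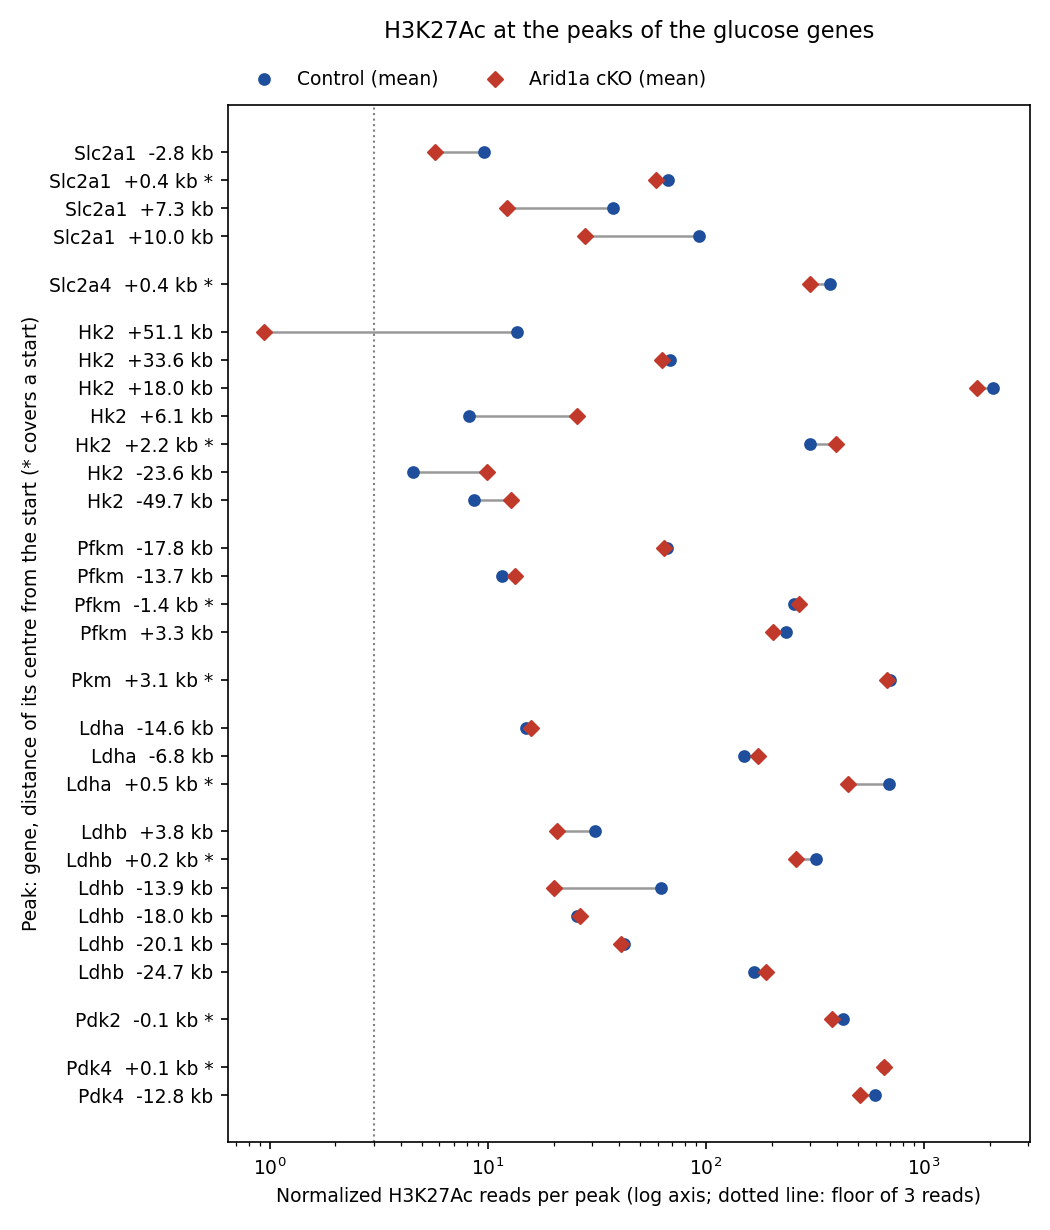
Each row is a peak, named by its gene and by the distance of its centre from the nearest start of that gene in kb, with negative values upstream; the points are the authors' mean normalized reads in controls (blue circles) and *Arid1a cKO* (red diamonds) on a log axis. The means of the 9 peaks that cover a start (asterisks) differ by less than 2-fold, most at *Ldha* (690 and 446), while 2 *Slc2a1* peaks, 1 *Ldhb* peak and 1 *Hk2* peak are lower in *Arid1a cKO* and 2 *Hk2* peaks are higher.

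Promoter and distal peaks differed in how far their means lay apart. A peak covered a start of its own gene in 9 cases, once for each gene with a peak. None of the 9 promoter peaks passed the 2-fold limit, where 1.7% of the 12022 peaks that cover a start were lower and 1.16% were higher. Their differences ran from -0.63 at *Ldha* to 0.39 at *Hk2*, with 7 of 9 (77.8%) below 0 and a median of -0.16, against 48% below 0 and a median of 0.01 for all peaks covering a start. With promoters defined by the position of the peak centre instead, only the peaks of *Ldha* (-0.63) and *Pdk2* (-0.16) remained. Their median was -0.40, which does not describe the other promoters. The other 20 peaks held all of the called ones, 4 lower (20%) against 13.8% of the 33958 peaks that cover no start, and 2 higher (10%) against 5.78%. Distal peaks of these genes were also narrower and held fewer reads, with medians of 1722 bp and 39.7 normalized reads in controls against 4386 bp and 372 at the promoters.

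**Figure D2:**
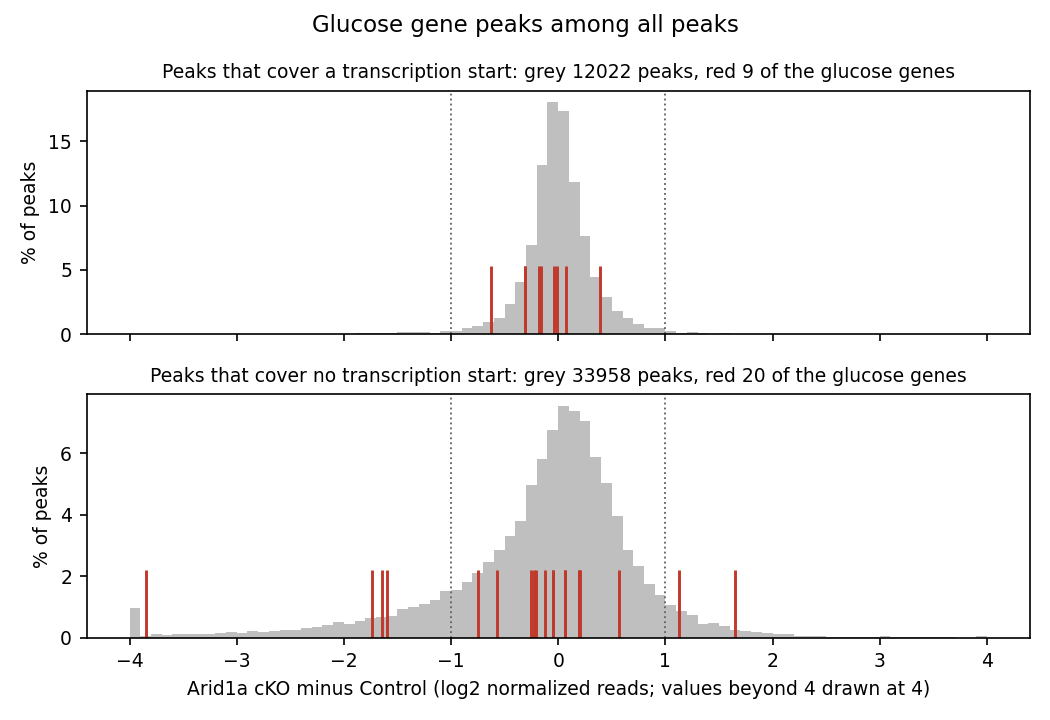
The grey histograms give the percentage of all peaks at each difference of *Arid1a cKO* minus control in log2 normalized reads, above for the 12022 peaks that cover a start and below for the 33958 that cover none, and the red lines are the peaks of the glucose genes. All 9 promoter peaks fall between the dotted lines at 2-fold, while 4 of the 20 distal peaks lie left of them and 2 lie right.

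*Slc2a1* encodes GLUT1, the insulin-independent glucose transporter of the fetal heart. Summed over its 4 peaks, H3K27Ac was 207 normalized reads in control hearts and 105 in *Arid1a cKO*, a log2 difference of -0.98, the lowest of the 9 genes with a peak. The peak over the start, chr4:119108339-119109919, had 66.7 and 58.9 normalized reads. Its difference of -0.18 was small beside those of the intronic peaks. In intron 1, the peak at chr4:119115282-119116896, with its centre 7.34 kb from the start and with the paired ERR core shown earlier, had 37.3 normalized reads in control hearts and 12.3 in *Arid1a cKO*, which is 3.03-fold lower. The neighbouring peak at chr4:119117327-119120082, 9.96 kb from the start, had 93.1 and 27.9, which is 3.34-fold lower. Per kb, this intronic peak had 33.8 normalized reads in control hearts against 42.2 over the start, and 10.1 against 37.2 in *Arid1a cKO*. A weak peak 2.78 kb upstream had 9.58 and 5.7 normalized reads.

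*Slc2a4* encodes GLUT4, which moves to the cell surface in response to insulin and is the main transporter of the mature heart. Its single peak, chr11:69945934-69949552, covers the start and had 372 normalized reads in control hearts and 300.2 in *Arid1a cKO*. The difference of -0.31 lies under the 2-fold limit. Over the starts alone, the differences of the pair were -0.18 at *Slc2a1* and -0.31 at *Slc2a4*. The summed difference of -0.98 at *Slc2a1* includes 3 peaks away from its start, while *Slc2a4* has none by this assignment, so the sums of the pair cover unlike sets of peaks. A peak 2.49 kb beyond the end of *Slc2a4*, nearest to *Ybx2*, had 247 normalized reads in control hearts and 100.4 in *Arid1a cKO* (-1.30). Another at 19.2 kb, nearest to *Eif5a*, had 491.1 and 484.4 (-0.02). Both were picked out after the values of these genes were seen, and neither is in the sum of *Slc2a4*.

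Hexokinases trap glucose in the cell by phosphorylating it, HK1 being the ubiquitous isoform and HK2 the insulin-regulated isoform of muscle and heart. *Hk2* had 7 peaks by nearest start, summing to 2480.4 normalized reads in control hearts and 2252.1 in *Arid1a cKO*, a difference of -0.14. Most of it came from a single domain of 20.7 kb in the gene, chr6:82746101-82766767, centred in intron 2, with 2077 and 1746 normalized reads. This domain differed by -0.25. The peak over the start, chr6:82769257-82775262, differed in the other direction, with 300.2 normalized reads in control hearts and 393 in *Arid1a cKO* (0.39). It was the highest difference among the 9 promoter peaks. Between the domain and the promoter peak, the small peak chr6:82767875-82768753 had 8.17 and 25.6 normalized reads and was 3.14-fold higher in *Arid1a cKO*.

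Away from the gene, the *Hk2* peaks held few reads. A peak 23.6 kb upstream had 4.53 normalized reads in control hearts and 9.92 in *Arid1a cKO*, 2.19-fold higher, and another 49.7 kb upstream had 8.63 and 12.8. Beyond the end of the gene, 51.1 kb from the start, a peak of 13.6 normalized reads in controls was at 0.946 in *Arid1a cKO*, the lowest value that the table takes, shared by 279 peaks. Against the floor of 3 reads it was at least 4.55-fold lower. The peak in intron 7 had 68.6 and 63.1 normalized reads. The median of the 7 differences was 0.39 while the summed difference was -0.14, so the direction for *Hk2* depends on the weight given to the large domain.

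*Hk1* had 8 peaks within the gene or 5 kb upstream of it, of which 7 lay nearest to *Hk1os* and 1 nearest to *Tacr2*. Their sum was 1449 normalized reads in control hearts and 1076 in *Arid1a cKO* (-0.43), and 0 passed the 2-fold limit. Most of this signal came from a domain of 16 kb, chr10:62325453-62341483, that covers the downstream *Hk1* start, with 1235 and 904 normalized reads (-0.45). Within intron 5, the peak chr10:62313696-62314947 had 62.2 and 35.5 normalized reads (-0.81). The lowest *Hk1* difference, -0.85, was in intron 4, with 32.4 and 18 normalized reads. Of the 8 peaks, 6 were below 0, and the other two, both in intron 5, had differences of 0.59 and 0.17. Reads of *Hk1* and of the overlapping antisense gene cannot be told apart in ChIP-Seq, which has no strand.

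*Pfkm* encodes the muscle subunit of phosphofructokinase, the rate-setting enzyme of glycolysis. Its 4 peaks summed to 566 and 546 normalized reads (-0.05), with differences from -0.21 to 0.19. The peak over 3 downstream starts, chr15:98108092-98113181, had 254 and 267 normalized reads (0.07), and the peak in intron 2 had 234 and 202 (-0.21). The most upstream *Pfkm* start is covered by a peak that lies nearer to the start of *Senp1*, with 446 and 402 normalized reads (-0.15). Signal over the promoters was therefore near equal in both groups. At the other end of the gene, a peak centred in intron 21, chr15:98130159-98132945, which lies nearest to a start of *Asb8*, had 119 normalized reads in control hearts and 25.6 in *Arid1a cKO*, which is 4.66-fold lower.

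*Pkm* encodes the muscle-type pyruvate kinases, which form pyruvate in the last step of glycolysis. A broad peak of 9.97 kb over its starts, chr9:59655365-59665339, had 695 normalized reads in control hearts and 676 in *Arid1a cKO* (-0.04). Right next to it, in intron 3, the peak chr9:59665880-59668271 had 69.1 and 15.1 normalized reads, which is 4.56-fold lower. This peak lies nearest to the start of an unnamed locus (LOC115487221) within the gene and is not among the 29. Farther down, the peaks in introns 8 and 9 had differences of -0.67 and -0.39 and lie nearest to *Gramd2*. Summed over the gene body, *Pkm* had 898 and 779 normalized reads (-0.21).

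*Ldha* encodes the muscle-type subunit of lactate dehydrogenase, and *Ldhb* the heart-type subunit. The *Ldha* promoter peak, chr7:46844811-46847733, had 690 normalized reads in controls, the highest level per kb of the 29 peaks at 236 reads per kb, and 446 in *Arid1a cKO*. At 1.55-fold lower it had the lowest difference of the 9 promoter peaks (-0.63), the only 1 of the 9 past a 1.5-fold limit, which 4.18% of all peaks over a start passed as lower and 4.43% as higher. The *Ldha* peaks upstream differed little. At 6.78 kb the levels were 150.1 and 172 normalized reads (0.20), and at 14.6 kb they were 15 and 15.7 (0.06). Because only the promoter peak had a difference below 0, the median of the 3 differences was 0.06 while the summed difference was -0.43.

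At *Ldhb*, the promoter peak chr6:142505544-142509929 had 320 and 258 normalized reads (-0.31). The largest difference was upstream, where the peak chr6:142520955-142522854, 13.9 kb from the start and with the TEAD core in its centre, had 62.2 normalized reads in control hearts and 20 in *Arid1a cKO*, which is 3.12-fold lower. The 3 peaks farther upstream, at 18, 20.1 and 24.7 kb, differed by 0.06, -0.05 and 0.19, and so the lower signal was limited to 1 of the 4 upstream peaks. The TEAD core did not set the lower peak apart, since the peaks at 18 and 24.7 kb also held it within their middle 500 bp. The peak in intron 2 had 30.9 and 20.8 normalized reads (-0.57). Over its 6 peaks *Ldhb* summed to 646 and 555 normalized reads (-0.22).

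*Pdk2* and *Pdk4* encode kinases that switch off pyruvate dehydrogenase, *Pdk4* being induced by fasting and fatty acids. The *Pdk2* peak over its starts, chr11:95039243-95042620, had 425 normalized reads in control hearts and 380.0 in *Arid1a cKO* (-0.16). The *Pdk4* promoter peak, chr6:5492386-5499902, had 657 and 653 (-0.01), the smallest difference among the 29 peaks. Another peak 12.8 kb upstream had 596 and 508 normalized reads (-0.23). Neither kinase gene had a peak past the 2-fold limit.

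**Figure D3:**
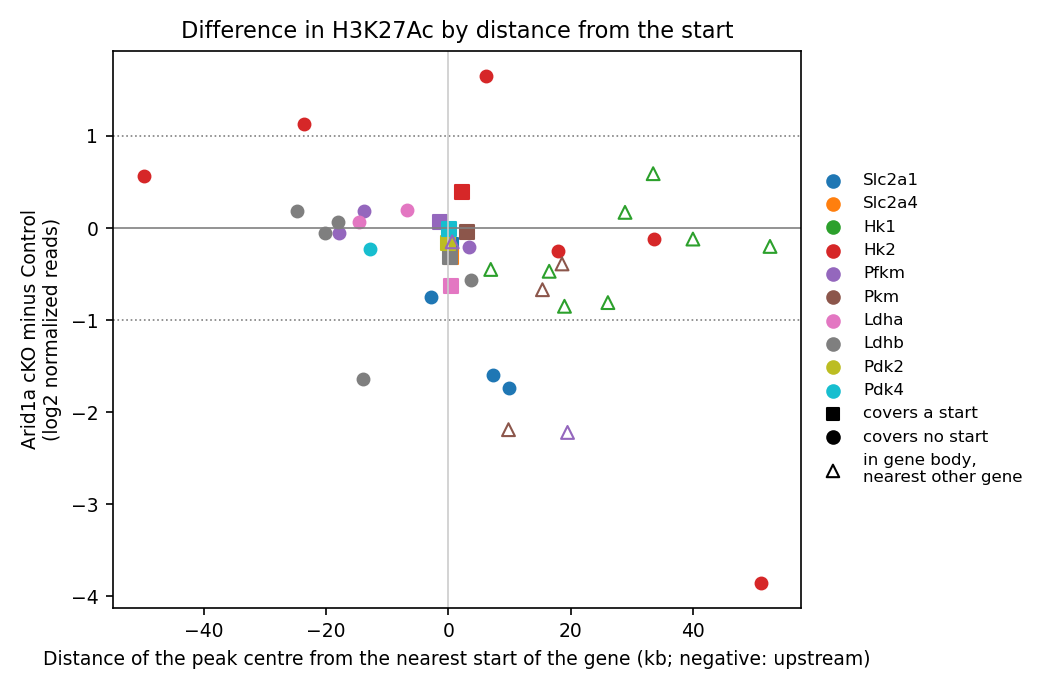
The difference of *Arid1a cKO* minus control (log2 normalized reads, vertical axis) is plotted against the distance of each peak from the nearest start of its gene (kb, negative upstream), with squares for peaks over a start, circles for other peaks of the 29, and open triangles for peaks within the genes that lie nearest to a start of another gene; dotted lines mark 2-fold. The squares lie between -0.63 (*Ldha*) and 0.39 (*Hk2*), and the peaks lower by at least 2-fold lie 7.34 kb to 51.1 kb from a start on either side.

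Because H3K27Ac peaks differ in width, levels between genes were compared as normalized reads per kb over the peaks of each gene. In controls the order was *Pdk2* (126 reads per kb), *Ldha* (116), *Slc2a4* (103), *Pdk4* (95.4), *Hk2* (77.5), *Pkm* (69.6), *Pfkm* (50.5), *Ldhb* (39.2) and *Slc2a1* (31.3). In *Arid1a cKO* the order was the same except that *Pdk4* (88.4) came before *Ldha* (86.1) and *Slc2a4* (83.0). *Slc2a1* was last in both groups, at 15.9 reads per kb in *Arid1a cKO*. With no spread between hearts, neighbours in this order cannot be told apart from equal levels. All 9 summed differences were below 0, from -0.98 (*Slc2a1*) and -0.43 (*Ldha*) to -0.05 (*Pfkm*) and -0.04 (*Pkm*). By the median over the peaks of a gene, 3 of the 9 were above 0, at 0.39 for *Hk2*, 0.06 for *Ldha* and 0.01 for *Pfkm*.

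The gene bodies with 5 kb upstream held 30 peaks, of which 4 (13.3%) were lower, against 10.6% of all peaks, and 1 (3.33%) was higher, against 4.57%, so that these counts too lie near the background. The difference was below 0 in 25 of the 30 (83.3%), against 48.3% of all peaks. The median was -0.28, and that of the peaks covering no start was -0.47 in place of -0.08 by nearest start. Of the 30 peaks, 13 lay nearest to a start of another gene, and 11 of the 13 were below 0. The 2 called among the 13 were the lower peaks of *Pfkm* and *Pkm*.

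Other genes of glucose metabolism give the context, with 70 genes in 7 lists, of which 59 had 177 peaks. Of these peaks, 27 (15.3%) were lower and 4 (2.26%) were higher, against 10.6% and 4.57% of all peaks, and the median difference was -0.09. As for the 10 genes, the lower peaks were distal: 0 of 54 peaks over a start were lower and 1 was higher, while 27 of 123 other peaks (22%) were lower, against 13.8% of all peaks that cover no start. By list, lower peaks numbered 6 of 23 for upper glycolysis, 2 of 19 for lower glycolysis, 7 of 23 for pyruvate entry, 9 of 44 for glycogen, 3 of 34 for GLUT4 traffic, and 0 of 24 and 0 of 10 for transporters and gluconeogenesis. Higher peaks numbered 2 for transporters and 1 each for pyruvate entry and glycogen. The median difference was 0.29 over the transporter peaks and 0.42 over the gluconeogenesis peaks, and it was below 0 in the other 5 lists. Peaks of the transporter and gluconeogenesis lists were the weakest of the 7 lists. Their medians in controls were 26.2 and 16.5 normalized reads, against 44.9 for all peaks.

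The lowest summed differences among these genes were at *Pdp1*, a phosphatase that activates pyruvate dehydrogenase, at -1.11 with 249 normalized reads in control hearts and 116 in *Arid1a cKO*. *Pfkp*, the platelet-type phosphofructokinase, followed at -0.81 (230.1 and 131), with 4 of its 5 peaks lower. *Pfkfb2*, the heart-type enzyme that makes the phosphofructokinase activator fructose 2,6-bisphosphate, stood at -0.71 (736 and 450.0), as did *Ppp1r3a*, the muscle glycogen-targeting subunit of protein phosphatase 1 (452 and 276). The assignment of peaks matters here, since the gene body of *Pdp1* gave 0.17 in place of this value. The highest was *Slc16a7*, a monocarboxylate transporter that carries pyruvate and lactate, at 0.71 (231.5 and 379.6 normalized reads). The next rest on few reads. They were *Pfkfb1*, the liver-type isoform, at 0.64 (13.4 and 20.8), and *Fbp1*, a gluconeogenic phosphatase, at 0.59 (36 and 54). *Pdk3* at 0.51 (55.2 and 78.6) and *Slc2a12* at 0.49 (22.3 and 31.3) followed. The gene body of *Pfkfb1* gave 0.17 and that of *Fbp1* gave 0.58, while those of *Slc16a7* (1.19), *Pdk3* (0.80) and *Slc2a12* (0.64) gave larger differences.

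**Figure D4:**
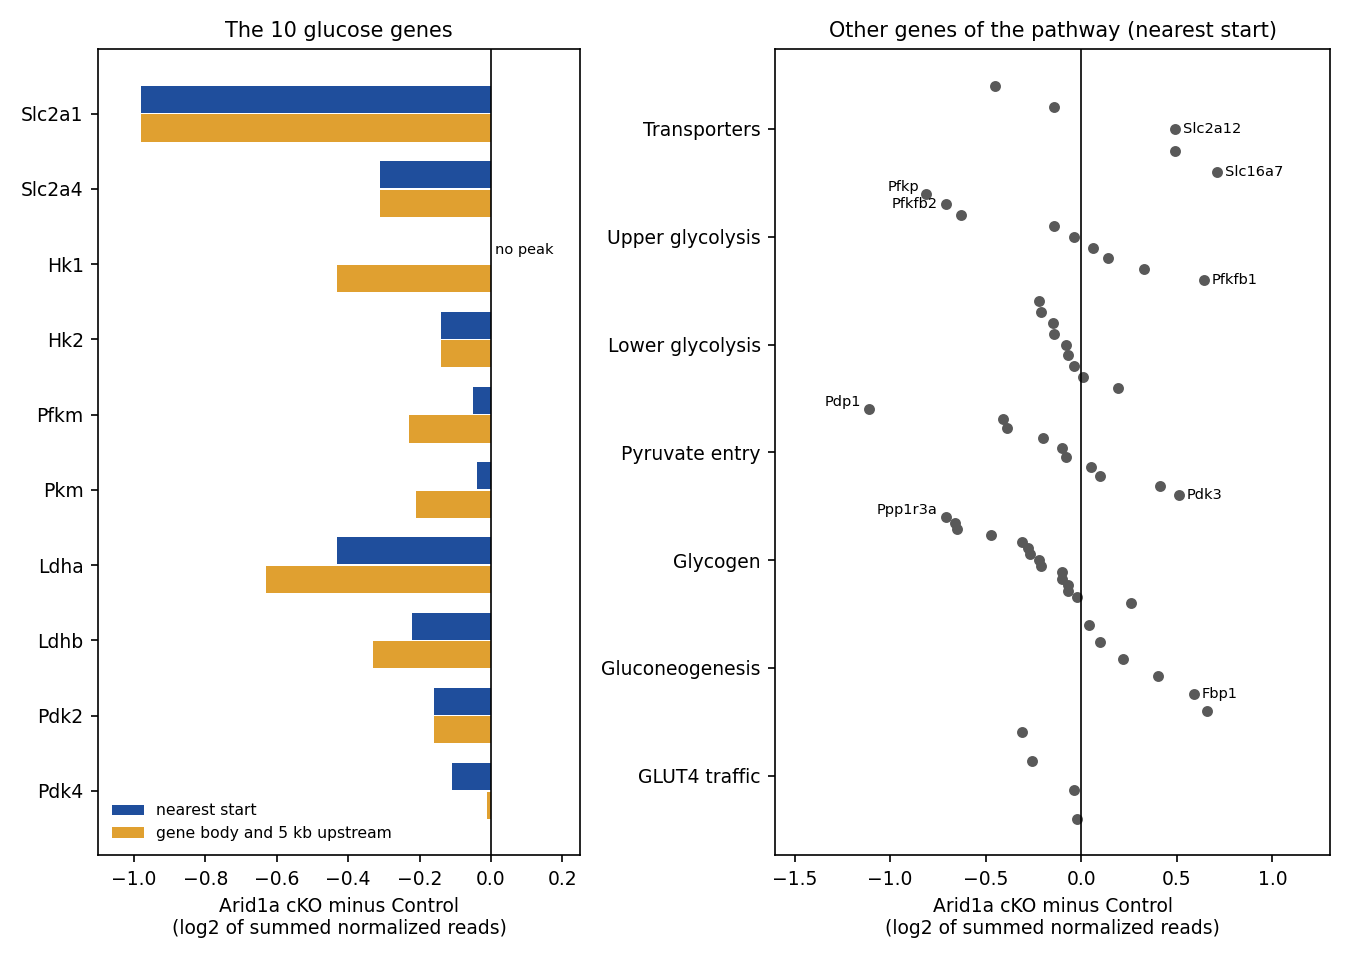
The horizontal axes give the difference of *Arid1a cKO* minus control in log2 of summed normalized reads, as bars for the 10 genes by either way of assigning peaks (left) and as a point per gene for the other glucose genes by list (right; labels mark the genes named in the text). *Slc2a1* has the lowest bar of the 10, at -0.98 by either assignment, since both take the same 4 peaks. *Hk1* has a bar by gene body only.

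Ventricles hold several cell types, and in such tissue fewer cells of a type and less H3K27Ac per cell cannot be told apart. Peaks near the 8 cardiomyocyte markers (8 of 8 with a peak) summed to 23851 normalized reads in control hearts and 22112.5 in *Arid1a cKO*, with gene differences from -0.46 to 0.28 and a median of -0.10. The value of 0.28, at *Tnni3*, came from 1 peak of 44 and 53.4 normalized reads. Over the gene body, *Tnni3* had 1245 and 1254.4 normalized reads (0.01). All 8 fibroblast markers had higher sums in *Arid1a cKO*, by 0.25 to 0.60 (median 0.45, 3760 and 5107 normalized reads). Endothelial markers (7 of 7 with a peak) ran from -0.03 to 0.22, smooth muscle and pericyte markers (6 of 6) from -0.12 to 0.83, macrophage and leukocyte markers (4 of 6, none near *Adgre1* or *Fcgr1*) from 0.19 to 0.88, and epicardial markers (3 of 4) from -0.19 to 0.47. The part of these shifts in the differences at the glucose genes was not tested.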

How the data were processed

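H3K27Ac ChIP-Seq and input libraries came from ventricles of P7 mice, 2 controls and 2 *Arid1a cKO*. Reads were aligned by the authors with BWA (0.7.17-r1188) to the mm10 genome. Regions were called by HOMER over the merged inputs and retained when present in 2 or more samples, and the authors compared their reads in DiffBind (2.12.0) by means of DESeq2 (1.24.0). In the deposited table there is, for each peak, the authors' log2 mean normalized read concentration in each group and over all samples. Its columns of the authors' fold changes, p-values and FDR were not used. The scaling between libraries and the handling of the input in these values are not given in the sources used here. The table holds 0 columns of single samples, so no count model was fitted, no test was made and the depth per library is unknown.

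Peaks were given to the nearest start of 45756 curated RefSeq transcripts (GRCm38.p6), and 7 peaks on unplaced sequences were left out. Gene sums add the linear values of the peaks of a gene. All 10 genes are named, each with the peaks over its starts, its strongest peak and its most different peak with a mean of at least 10 reads. Other pathway genes named are from the 5 lowest and 5 highest sums with at least 20 reads, of which 1 is not reported here. Remaining peaks were named for completeness. The members, gene lists and motifs were chosen with earlier results of these data known. Scripts used Python 3.11.15, numpy 2.4.6, pandas 2.3.3 and matplotlib 3.10.9, and were tested on simulated data. Alternatives changed the assignment of peaks, the centring, the filters on low values, the fold limit, the promoter definition and the summary per gene.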

Additional observations from a re-analysis of the deposited data

How the results depend on the processing

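Of 104 recomputed values, 98 lay within 0.2 log2 or 1.5 times of the reported value, and 3 changed sign. Part of these values could hardly move. Centring shifted each difference by only 0.01, and *Slc2a1*, *Slc2a4* and *Pdk2* held the same peaks by nearest start and by gene body. With peaks assigned by overlap with the gene body or 5 kb upstream, the median of distal peaks moved from -0.08 to -0.47 and the count of higher peaks from 2 to 1; here the set of peaks itself changed. A promoter defined by a peak centre within 1000 bp before and 100 bp after a start moved the promoter median from -0.16 to -0.40. Only the promoter peaks of *Ldha* (-0.63) and *Pdk2* (-0.16) met that definition. Without the peaks of lowest concentration, at or under a log2 of 4.18, 0 peaks were higher in place of 2, both of them at *Hk2*. With medians over peaks in place of sums, *Hk2* was at 0.39, *Ldha* at 0.06 and *Pfkm* at 0.01, the 3 changes of sign. For *Hk1*, which has no peak by nearest start, the nearest protein-coding start gave -0.44 in place of -0.43 over the gene body. At a 1.5-fold limit, 6 peaks were lower and 2 higher, against 17.3% and 12% of all peaks. No paired analysis was possible because the table holds no single-sample columns, and for the same reason no replicate could be left out. The depth per library is unknown, and 2 of the 29 peaks have a higher mean under 10 normalized reads.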

Other observations

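Chosen after the values of the 10 genes were seen, 8 further peaks lay within 20 kb of the ends of these genes and belong to neighbouring genes by either assignment, with a median difference of -0.10. Apart from 1 peak with a mean under the floor, the differences ran from -1.30 to 0.79. The lowest of these values was 2.49 kb beyond the end of *Slc2a4*, where the peak chr11:69935584-69939792, nearest to *Ybx2*, had 247 normalized reads in control hearts and 100.4 in *Arid1a cKO* (-1.30). Beyond the end of *Pkm*, at 15.6 kb, a peak nearest to *Gramd2* had 9.92 normalized reads in control hearts and 1.89 in *Arid1a cKO*, under the floor of 3 reads. Beyond the end of *Pfkm*, at 6.11 kb, a peak nearest to *Asb8* had 43.4 and 75.1 normalized reads (0.79).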
